A study of Mus musculus with 36 samples.

Results

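The cytochrome P450 family is described here in organoids, hollow epithelial bodies grown in culture from primary mouse prostate cells, that carried 1 of 4 constructs. Members were all protein-coding mouse genes with a symbol of the form Cyp, number, letter, number, which leaves out the sterol demethylase Cyp51. Of 45232 genes in the count tables, 94 met that rule, and the 48 with at least 20 summed counts in any of the 12 groups are described. The study sequenced polyadenylated RNA to ask how forms of FOXA1, a forkhead transcription factor of prostate epithelium, alter expression. The empty construct is called empty vehicle in the labels (EV). The others encode wild-type FOXA1 (WT) or the FOXA1 variants FE255del and R219S, as a fusion with a DsRED reporter that is split by a 2A peptide. All 4 sit in the pCW vector, from which doxycycline (500 ng/mL) induces expression, and all cells keep their own Foxa1 gene. Libraries were made at days 0, 1 and 11, 3 for each construct and day. That day 0 is without doxycycline is read only from the names given to the deposited data. Cells positive for dsRED were sorted and then seeded as 3 cultures a construct, so the cultures of a construct share 1 sorted population, and p-values measure the spread between such cultures.

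Cytochrome P450 enzymes hold a heme iron and insert an oxygen atom into their substrate, with electrons passed on by the reductase Por in the endoplasmic reticulum or by ferredoxin in mitochondria. Families named Cyp1 to Cyp3 mostly oxidise drugs and other foreign compounds, Cyp4 and the Cyp2j group oxidise fatty acids and eicosanoids, and others make or clear sterols, bile acids, steroid hormones, vitamin D and retinoic acid. Most are best known from liver, and many lie in tandem arrays that arose by duplication. In prostate, P450 enzymes are known for the local handling of androgens, oxysterols and retinoids.

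Libraries held 61476938 to 102385337 counts, and replicates of a group correlated at r of at least 0.996 across genes, which are not independent replicates. Levels are CPM, counts scaled to a common library size with edgeR's TMM factors. Foxa1 averaged 226.7 ± 4.99 CPM (SD, n = 3) in EV at day 1, 414.3 ± 4.69 in WT, 320.2 ± 27.1 in FE255del and 308.6 ± 5.11 in R219S. Of 12 epithelial and prostate markers, only Pbsn, the secretory product probasin, was at 0 in every group. The summed level of the other 11 markers lay between 4149.7 and 14409 CPM in every library. In these bulk samples fewer cells of a type and less RNA per cell cannot be told apart. Of the 48 genes, 41 passed the filter on low counts and were tested. A gene can pass that filter through the group in which it is high, so counts over the 41 describe these genes and not the 94. Log2 fold changes are given ± SE, and rose or fell means an adjusted p under 0.05 in edgeR's quasi-likelihood test with Benjamini-Hochberg adjustment over all 18176 genes tested.

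The genes whose sequences help to read the results are those that were high with R219S. Cyp2c29 lies among near copies on chromosome 19, and 60 coding bases around the codon of the heme-binding cysteine show how it differs from 3 neighbours. They come from the longest open reading frames of GENCODE M21 transcripts, and capitals mark bases unlike Cyp2c29.
Cyp2c29: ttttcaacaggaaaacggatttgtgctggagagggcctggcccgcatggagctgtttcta
Cyp2c38: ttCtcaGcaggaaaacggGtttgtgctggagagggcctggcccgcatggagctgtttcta
Cyp2c39: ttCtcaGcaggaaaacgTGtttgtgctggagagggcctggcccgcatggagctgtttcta
Cyp2c70: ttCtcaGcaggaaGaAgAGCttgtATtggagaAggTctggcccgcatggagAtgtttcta
Cyp2c38 differed at 3 of these bases and Cyp2c39 at 4. Over the whole coding sequence of 1473 bases they were 89.1% and 89.5% identical to Cyp2c29. Cyp2c70, with a coding length of 1470 bases, differed at 12 bases of the stretch. Of the 50-base words in Cyp2c29 exons, 4.25% also occur in another gene, mostly the overlapping pseudogene Cyp2c53-ps.

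The RefSeq promoters of Cyp2c29 and of 3 neighbouring Cyp2j genes on chromosome 4 are shown because these 4 genes rose with R219S. Each runs from 250 bases before to 50 after the transcript start on GRCm38.p6, the same assembly as mm10. Cyp2c29 lies at chr19:39286835-39287134 on the plus strand. Cyp2j6 lies at chr4:96553602-96553901, Cyp2j9 at chr4:96591436-96591735 and Cyp2j5 at chr4:96664070-96664369, all on the minus strand. Capitals mark matches on either strand to TGTTTAC, a forkhead core motif, or to GTAAAG or GTAAAA, which differ from it at the base after GTAAA on the opposite strand.
Cyp2c29: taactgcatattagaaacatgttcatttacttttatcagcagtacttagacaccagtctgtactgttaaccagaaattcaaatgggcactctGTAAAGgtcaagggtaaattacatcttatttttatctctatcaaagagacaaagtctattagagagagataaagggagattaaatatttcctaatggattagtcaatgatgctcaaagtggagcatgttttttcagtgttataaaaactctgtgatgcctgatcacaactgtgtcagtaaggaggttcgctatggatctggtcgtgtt
Cyp2j6: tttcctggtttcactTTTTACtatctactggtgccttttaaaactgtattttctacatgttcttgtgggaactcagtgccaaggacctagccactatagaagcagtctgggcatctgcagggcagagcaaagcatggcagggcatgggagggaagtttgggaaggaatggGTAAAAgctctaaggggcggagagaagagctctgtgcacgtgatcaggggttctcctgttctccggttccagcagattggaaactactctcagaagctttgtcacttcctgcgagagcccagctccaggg
Cyp2j9: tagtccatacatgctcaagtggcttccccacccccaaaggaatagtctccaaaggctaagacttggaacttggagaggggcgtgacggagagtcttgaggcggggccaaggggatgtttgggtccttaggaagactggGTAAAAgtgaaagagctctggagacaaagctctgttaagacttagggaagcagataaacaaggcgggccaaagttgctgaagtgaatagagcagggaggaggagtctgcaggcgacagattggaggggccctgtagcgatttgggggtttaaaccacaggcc
Cyp2j5: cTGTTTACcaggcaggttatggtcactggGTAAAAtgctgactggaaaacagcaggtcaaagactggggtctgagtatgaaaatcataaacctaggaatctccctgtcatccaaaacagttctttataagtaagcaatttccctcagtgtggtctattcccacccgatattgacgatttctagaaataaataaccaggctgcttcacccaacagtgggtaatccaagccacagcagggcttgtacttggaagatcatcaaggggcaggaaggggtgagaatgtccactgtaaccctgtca
No position can match more than 1 of these 3 motifs. The 3 motifs were chosen after these promoters and the results had been seen. TGTTTAC was found in 3.65% of 32851 RefSeq promoters of this length, GTAAAG in 10.1% and GTAAAA in 10.4%. Of the 48 genes, 35 matched 39 promoters, of which 3, 4 and 6 held the respective motifs. Besides the genes shown, GTAAAG was in the promoters of Cyp1b1, Cyp2b19 and Cyp4f39, which all fell with R219S at day 1. TGTTTAC was also in those of Cyp2ab1, which rose with R219S at day 1, and Cyp3a16, which fell. GTAAAA was also in those of Cyp2c55, Cyp2c70 and Cyp4f14. The promoters of Cyp2f2, Cyp4b1, Cyp1a1 and Cyp1a2 held none of the 3. A match is a string of letters and not a measured binding site.

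**Figure D1:**
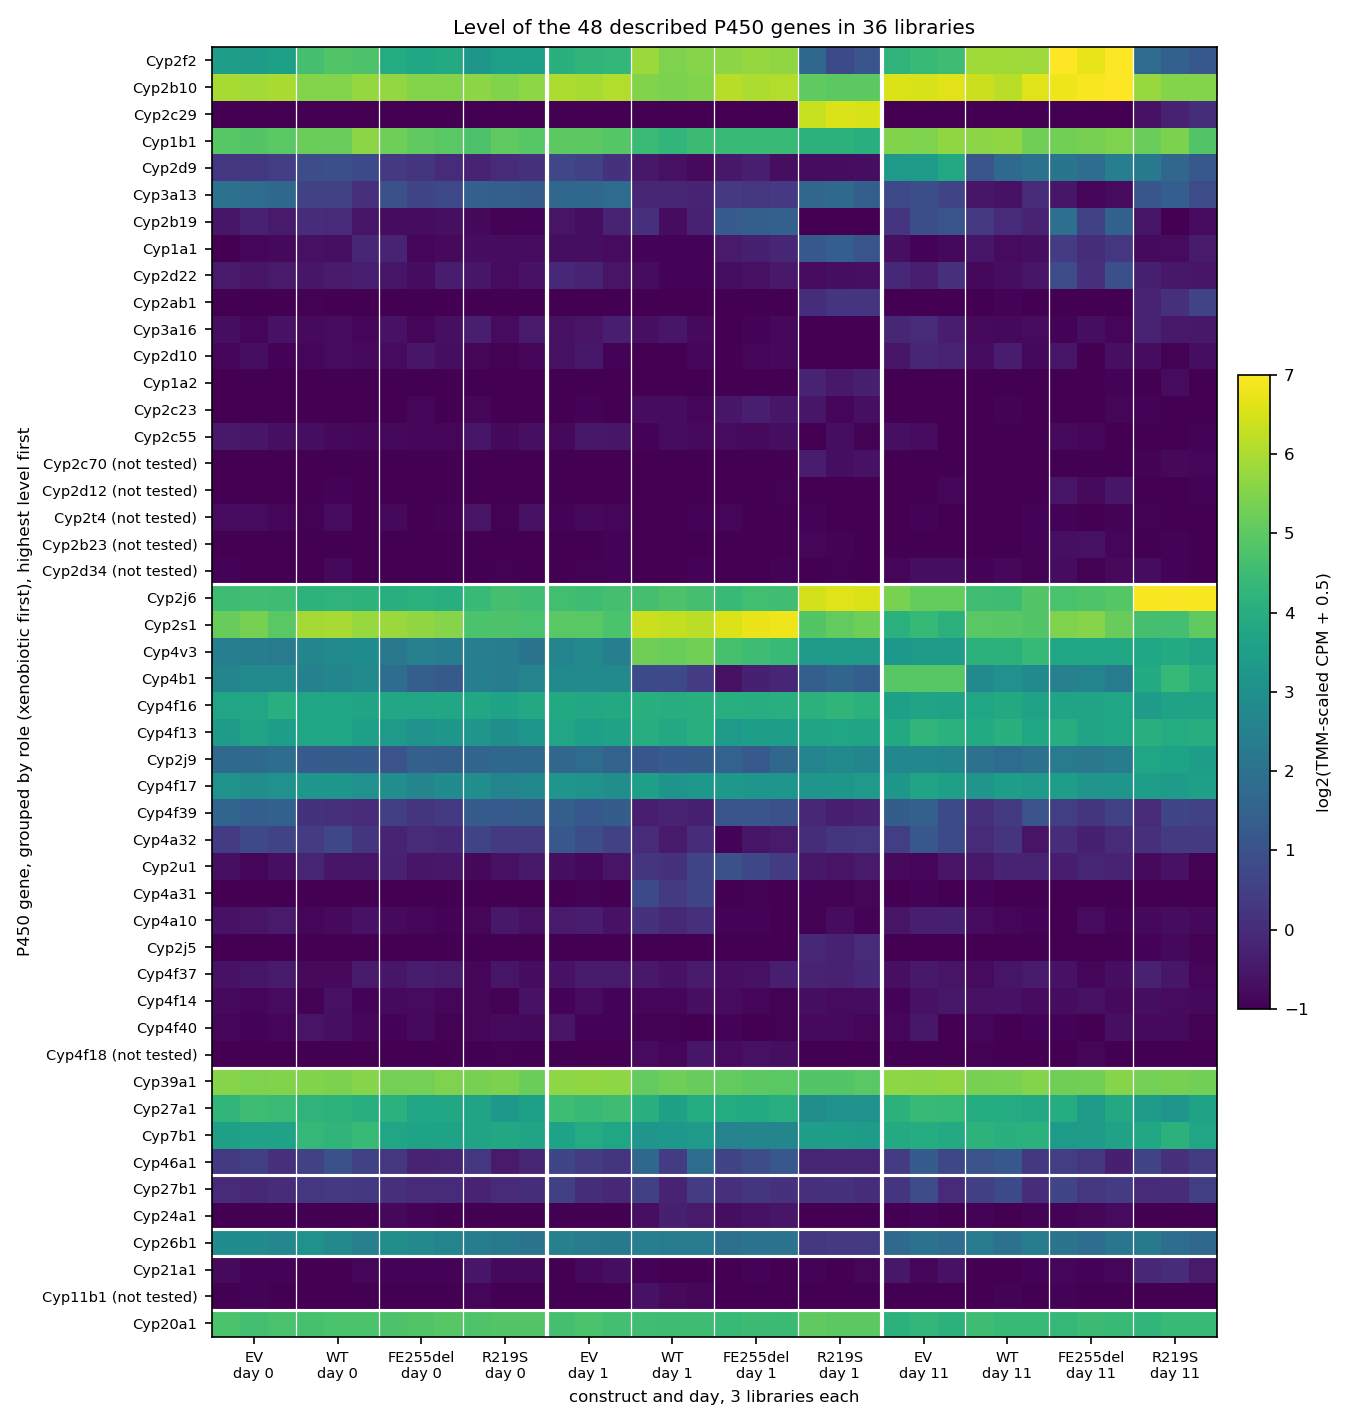
Level of the 48 described P450 genes (rows, grouped by role) in the 36 libraries (columns, 3 a group), as log2(TMM-scaled CPM + 0.5). Cyp2c29 is bright only in the R219S columns of day 1, while Cyp2b10, Cyp1b1, Cyp39a1 and Cyp20a1 stay high throughout.

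In EV organoids at day 0, before induction, the family was led by Cyp2b10, a drug-metabolising enzyme best known as a target of the receptor CAR in liver, at 29.0 ± 0.979 CPM per kb of exon (SD, n = 3). Cyp39a1 at 14.6 ± 0.575 and Cyp20a1 at 11.0 ± 0.436 CPM per kb came next, each beyond the spread of its neighbour. Cyp27a1 at 9.57 ± 0.812, Cyp2s1 at 7.08 ± 1.00 and Cyp2j6 at 6.24 ± 0.0533 CPM per kb followed. Cyp7b1 at 5.35 ± 0.127, Cyp2f2 at 5.18 ± 0.341 and Cyp1b1 at 5.06 ± 0.163 CPM per kb lay within their spreads of each other. Of these 9 genes, Cyp20a1 has no known substrate, and the others cover drug, fatty acid and sterol oxidation. Summed over the 48 genes, the level was 323.9 ± 1.22 CPM in EV at day 0, 337.7 ± 2.7 at day 1 and 425.9 ± 11.5 at day 11. The summed level at day 11 was highest in FE255del at 529.6 ± 47.3 CPM, where 1 gene, Cyp2f2, gave 142.1 CPM of it. Of the other 46 genes, 16 had no count in any library. Cyp2d34 with 20 and Cyp2t4 with 21 counts in their highest group are just inside the limit, and Cyp26a1 and Cyp2j8 with 17 each are just outside it.

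The comparisons with EV on the same day ask how each construct differed from the empty one. At day 1, WT FOXA1 went with a rise of 11 and a fall of 16 of the 41 tested P450 genes. Over all 18176 genes tested, 29.6% rose and 30.9% fell, 60.5% together. With FE255del 9 rose and 11 fell, against 25.5% and 27.7% of all genes (53.2% together). With R219S 11 rose and 16 fell, against 23.2% and 25.3% of all genes (48.5% together). The median log2 fold change of the 41 genes was -0.21 in WT, -0.20 in FE255del and -0.18 in R219S, beside -0.02, -0.03 and -0.05 over all genes tested. Groups at 0 are set to their bound in these medians, and with fitted values instead the median in WT was 0. Which genes moved differed between constructs, as the values below show.

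At day 11, 7 P450 genes rose and 14 fell in WT, where 21.0% and 19.7% of all genes did (40.6% together). In FE255del 8 rose and 14 fell, against 22.6% and 19.6% (42.2% together). In R219S 7 rose and 11 fell, against 17.7% and 14.4% (32.1% together). At day 0, differences between the constructs were already present. WT differed from EV in 6 higher and 5 lower genes (9.90% and 12.8% of all genes, 22.7% together). FE255del differed in 3 higher and 10 lower (11.1% and 9.72%, 20.8% together) and R219S in 1 higher and 7 lower (13.2% and 6.92%, 20.1% together). Without EV day 0 replicate 2 these last 2 totals were 8 and 3 in place of 13 and 8. Without R219S day 0 replicate 2 or replicate 3 the R219S total was 5 or 4. With DESeq2's size factors or with total counts as the scaling, the split at day 0 was 1 higher and 10 lower in FE255del and 0 higher and 8 lower in R219S.

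Set directly against WT, which asks what the variants do that WT does not, FE255del had 7 P450 genes higher and 9 lower at day 1 (21.8% and 19.9% of all genes, 41.7% together). At day 11 it had 7 higher and 4 lower (9.75% and 7.92%, 17.7% together). R219S had 11 higher and 16 lower at day 1 (30.5% and 29.1%, 59.6% together) and 9 higher and 8 lower at day 11 (24.8% and 24.1%, 48.9% together), or 9 and 12 when scaled to total counts. At day 0, FE255del had 0 higher and 10 lower than WT (15.7% and 11.2% of all genes, 26.8% together), which was 6 in total without FE255del day 0 replicate 2 or replicate 3. R219S had 5 higher and 13 lower at day 0 (23.8% and 16.0%, 39.8% together). In EV alone, 1 P450 gene, Cyp2f2, rose from day 0 to day 1, where 0.259% of all genes rose and 1.17% fell (1.43% together). With DESeq2's size factors 1 gene rose and 1 fell. From day 0 to day 11, 14 rose and 5 fell in EV (23.1% and 24.6% of all genes, 47.6% together).

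The change of each construct since day 0 minus that of EV removes what was there before induction. By day 1 it passed for 15 P450 genes in WT (44.0% of all genes), 17 in FE255del (40.2%) and 20 in R219S (39.4%). By day 11 it passed for 7 in WT (21.4%), 9 in FE255del (20.5%) and 9 in R219S (27.1%). Genes at 0 in both day 0 groups, such as Cyp2c29, gave no estimate of this change and count as not passing.

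**Figure D2:**
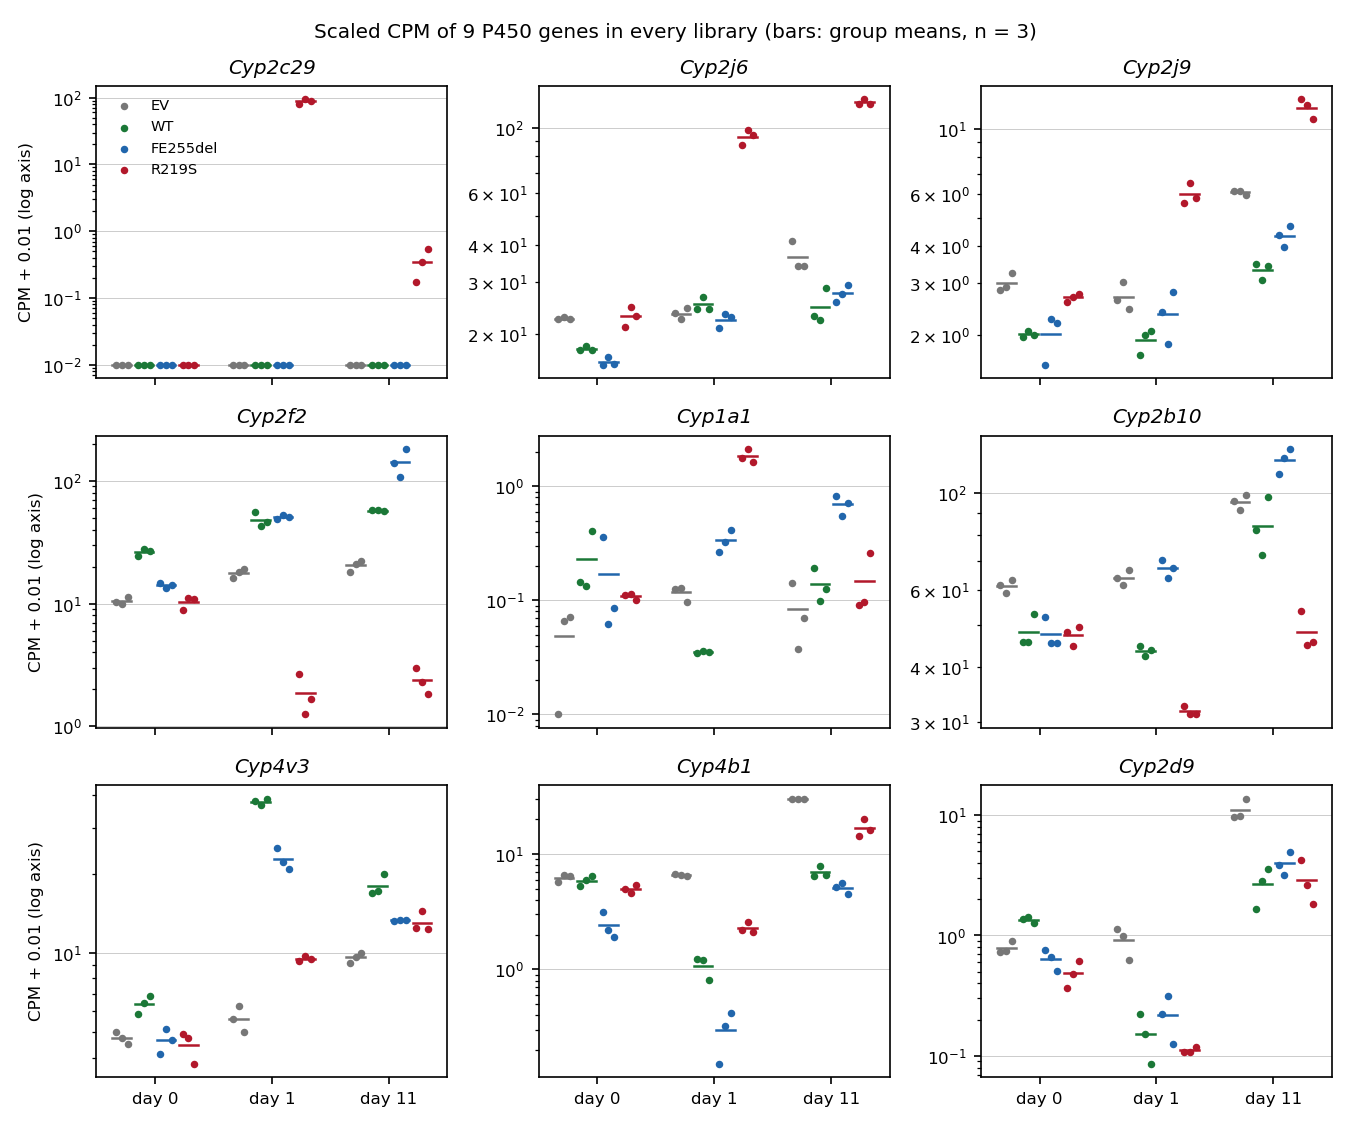
TMM-scaled CPM of 9 P450 genes in each library on a log axis, with 0.01 added so that zeros can be drawn, by day and construct. Bars are group means of 3 libraries. Cyp2c29 sits at the floor in all libraries but those of R219S at days 1 and 11. On those 2 days Cyp2j6 and Cyp2j9 are highest in R219S, and Cyp2f2 is lowest there.

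Among the xenobiotic-metabolising genes, 5 of 15 tested rose and 8 fell with R219S at day 1, 2 rose and 7 fell with WT, and 4 rose and 4 fell with FE255del. Over all genes tested, 23.2% rose and 25.3% fell with R219S, 29.6% and 30.9% with WT, and 25.5% and 27.7% with FE255del. Cyp2c29 (ENSMUSG00000003053.14), in liver an abundant oxidase of drugs and arachidonic acid, was present only in R219S after induction. It had 80.1, 94.5 and 90.2 CPM in the 3 R219S libraries of day 1 and 0.161, 0.332 and 0.524 CPM in those of day 11. It had 0 counts in every one of the other 30 libraries, R219S at day 0 included. R219S at day 1 was at least 6022-fold higher than EV (adjusted p = 8.8e-09) and at least 6982-fold higher than WT (adjusted p = 5.3e-09), with the empty group set to 3 counts over its 3 libraries. At day 11 the bounds were 24.0-fold against EV and 25.2-fold against WT. With DESeq2 these 4 calls did not pass (adjusted p = 0.070 and 0.056 at day 1, 0.50 and 0.44 at day 11), although the groups do not overlap in the counts. The 10 hepatocyte markers summed to 0.313 to 0.480 CPM in R219S at day 1 and 0.146 to 0.247 CPM in EV, with Apob, Serpina1a, Fgb, Fga and Tat at 0 in that R219S group. In EV at day 1, Apoa1, Apoa2, Apob, Serpina1a, Fgb and Fga were at 0.

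Other P450 genes nearly silent elsewhere were seen with R219S, at far lower levels than Cyp2c29. Cyp2ab1, a P450 with no settled substrate, had 0.522, 0.677 and 0.640 CPM in R219S at day 1 and 0.375, 0.548 and 1.02 CPM at day 11. It had 0 counts in every EV library, which put R219S at least 41.8-fold higher at day 1 and at least 46.0-fold higher at day 11. Cyp1a2, the main caffeine-oxidising enzyme of liver, had 0.353, 0.226 and 0.313 CPM in R219S at day 1 and 0 in all EV and WT libraries of that day. It was at least 20.3-fold higher than EV (adjusted p = 0.00073), a call that DESeq2 did not make (adjusted p = 0.46). Cyp2c70, a bile acid hydroxylase of mouse liver, was too low to test, with 39 counts in R219S at day 1, 10 at day 11 and 0 in the other 10 groups. All 4 genes were therefore higher in R219S, and of them only Cyp2c29 reached the level of the main prostate P450 genes.

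Cyp2f2 (ENSMUSG00000052974.7), the enzyme of airway club cells that turns naphthalene toxic, stood above EV with WT and below it with R219S at days 1 and 11. At day 1 EV had 16.3, 18.2 and 19.1 CPM, WT 55.3, 43.0 and 46.1, FE255del 48.3, 52.8 and 50.3, and R219S 2.65, 1.24 and 1.67 CPM. The WT and FE255del libraries all lay above EV and the R219S libraries all below it. Against EV, WT stood at a log2 fold change of 1.43 ± 0.16 and FE255del at 1.501 ± 0.16 (adjusted p = 8.3e-09 and 5.0e-09). R219S stood at -3.27 ± 0.20 (adjusted p = 1.7e-13). At day 11 FE255del had 138.2, 107.1 and 181.1 CPM, WT 57.2, 58.0 and 56.2, EV 18.1, 21.1 and 22.3, and R219S 2.97, 2.31 and 1.82 CPM. FE255del was then above WT by 1.32 ± 0.15 (adjusted p = 2.0e-07) and R219S below WT (-4.59 ± 0.19, adjusted p = 5.5e-17). In WT the excess over EV was already 1.33 ± 0.16 at day 0 (adjusted p = 5.5e-07), and the change since day 0 did not pass at day 1 (0.11 ± 0.23, adjusted p = 0.76) or day 11 (0.15 ± 0.22, adjusted p = 0.73). The change since day 0 passed in FE255del (1.08 ± 0.23 at day 1, 2.37 ± 0.23 at day 11) and in R219S (-3.24 ± 0.27 and -3.09 ± 0.26). The rise of Cyp2f2 in EV from day 0 to day 1 (0.77 ± 0.17, adjusted p = 0.017) was lost without EV day 0 replicate 1 or 2 or EV day 1 replicate 2 or 3, with an adjusted p of up to 0.094. The 5 club cell markers summed to 22.2 to 25.1 CPM in EV at day 1, 37.2 to 40.9 in WT, 8.47 to 10.1 in FE255del and 44.0 to 48.1 in R219S. These sums hide opposite directions. Of the 3 markers tested, 1 rose and 1 fell against EV in WT, 0 and 2 in FE255del, and 1 and 1 in R219S. At day 11 the 5 markers summed to 107.6 to 148.8 CPM in EV, 626.5 to 828.2 in WT and 140.9 to 195.7 in R219S. In FE255del, where Cyp2f2 was higher than in WT, they summed to 78.5 to 107.4 CPM. Of the 3 tested, 2 rose and 1 fell against EV at day 11 in WT, 1 and 2 in FE255del, and 1 and 2 in R219S. Scgb3a2 was at 0 in 11 of 12 groups. The part of such cells in the Cyp2f2 levels was not tested. An antisense gene, Gm15883, overlaps Cyp2f2 and holds 8.997% of its 50-base words, and the strand setting of the counting is not given in the sources used here.

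The Cyp1 genes, classic targets of the dioxin receptor AHR, did not move together. Cyp1a1, which oxidises polycyclic hydrocarbons, had 1.78, 2.11 and 1.63 CPM in R219S at day 1 and 0.116, 0.119 and 0.0876 CPM in EV. It rose by 4.10 ± 0.52 on the log2 scale (adjusted p = 2.8e-08), and by day 11 R219S had 0.0803, 0.0865 and 0.248 CPM. In WT at day 1 it was at 0.0249, 0.0258 and 0.0251 CPM, 2 counts a library, and the fall (-2.09 ± 0.83, adjusted p = 0.030) was lost on leaving out any of the 3 WT libraries or EV day 1 replicate 1 or 2. In FE255del it rose at day 1 (1.60 ± 0.56, adjusted p = 0.016), a call lost without EV day 1 replicate 3 or FE255del day 1 replicate 3. At day 0, where EV had 0, 0.0564 and 0.0609 CPM, WT was higher (2.53 ± 0.70, adjusted p = 0.0066, lost without EV day 0 replicate 1 or WT day 0 replicate 3) and FE255del only just passed (2.004 ± 0.74, adjusted p = 0.0497), a call lost in 8 of 11 alternatives. The change since day 0 passed at day 1 in WT (-4.62 ± 1.09) and R219S (2.74 ± 1.04, adjusted p = 0.034) and did not pass in FE255del at day 1 (-0.41 ± 0.97) or day 11 (1.195 ± 1.01, adjusted p = 0.49). The rise at day 11, from 0.133, 0.0278 and 0.0603 CPM in EV to 0.817, 0.539 and 0.698 CPM, was 3.20 ± 0.56 (adjusted p = 1.3e-05). Cyp1b1, which hydroxylates estrogens and hydrocarbons outside the liver, fell at day 1 with all 3 FOXA1 constructs. EV had 31.1, 30.9 and 29.1 CPM, WT 21.5, 18.6 and 21.7, FE255del 20.5, 21.0 and 20.7, and R219S 17.3, 17.0 and 16.1 CPM. The groups did not overlap EV, and the falls were -0.56 ± 0.12, -0.55 ± 0.12 and -0.85 ± 0.12 (adjusted p = 0.00021, 0.00034 and 1.0e-06). WT had been above EV at day 0 (0.43 ± 0.12, adjusted p = 0.0077), a call lost without WT day 0 replicate 3 (adjusted p = 0.11). The change since day 0 passed at day 1 in all 3, at -0.99 ± 0.17 in WT, -0.73 ± 0.17 in FE255del and -0.87 ± 0.17 in R219S.

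The Cyp2b genes separated the variants. Cyp2b10 had 64.0, 61.7 and 66.5 CPM in EV at day 1, 44.6, 42.4 and 43.8 in WT, 70.3, 63.9 and 67.5 in FE255del, and 32.6, 31.2 and 31.2 CPM in R219S. WT and R219S lay below every EV library, with log2 fold changes of -0.56 ± 0.08 and -1.02 ± 0.08 (adjusted p = 3.2e-07 and 2.2e-12), and FE255del overlapped EV. At day 11 R219S remained lower (-0.99 ± 0.08, adjusted p = 8.7e-12) and FE255del was higher (0.32 ± 0.08, adjusted p = 0.0012), while WT did not pass the test (-0.18 ± 0.08, adjusted p = 0.063). Cyp2b10 was also lower than EV at day 0 in all 3 constructs, with log2 fold changes of -0.35 in WT, -0.37 in FE255del and -0.37 in R219S. The change since day 0 passed upward in FE255del (0.43 ± 0.11 at day 1) and downward in R219S (-0.65 ± 0.11) and did not pass in WT (-0.21 ± 0.11, adjusted p = 0.15). Cyp2b19, an arachidonate epoxygenase of keratinocytes, had 1.96, 2.19 and 2.25 CPM in FE255del at day 1 and 0.174, 0.119 and 0.350 CPM in EV (3.31 ± 0.54, adjusted p = 6.2e-06). R219S had 0 counts of Cyp2b19 in all 3 libraries of day 1, at least 15.4-fold lower than EV (adjusted p = 0.00047). R219S was lower at day 0 too (-2.81 ± 0.86, adjusted p = 0.020), a call lost in 4 of 11 alternatives, and its change since day 0 did not pass at day 1 (adjusted p = 0.17). In FE255del that change passed at day 1 (4.51 ± 0.87).

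Among the Cyp2d and Cyp3a genes, Cyp2d9 was lower than EV with all 3 constructs after induction, and others differed by construct. Cyp2d9, which hydroxylates testosterone in male mouse liver, rose in EV from 0.712, 0.734 and 0.884 CPM at day 0 to 9.62, 9.82 and 13.7 CPM at day 11. At day 11 WT had 1.64, 2.81 and 3.57 CPM, FE255del 3.81, 3.14 and 4.91, and R219S 4.23, 2.61 and 1.82 CPM. All 9 of these libraries lay below EV, by -2.05 ± 0.26, -1.48 ± 0.26 and -1.93 ± 0.26 (adjusted p = 8.2e-08, 1.4e-05 and 3.3e-07). At day 1 it was also lower in all 3, between -2.09 ± 0.38 in FE255del and -3.15 ± 0.43 in R219S. Of the 50-base words of Cyp2d9, 21.8% occur in other genes, so reads of its close copies may be shared. Cyp3a13, a Cyp3a of gut and other tissues outside the liver, fell in WT and FE255del and not in R219S. At day 1 EV had 2.75, 2.66 and 2.95 CPM, WT 0.398, 0.413 and 0.365, FE255del 0.762, 0.711 and 0.754, and R219S 2.61, 2.92 and 2.19 CPM. The log2 fold changes were -2.83 ± 0.27 in WT, -1.91 ± 0.25 in FE255del and -0.11 ± 0.23 in R219S (adjusted p = 2.2e-11, 4.5e-08 and 0.72). WT and FE255del were already lower at day 0 (-1.89 ± 0.25 and -1.30 ± 0.24), and the change since day 0 passed at day 1 in WT only (-0.94 ± 0.36, adjusted p = 0.033). Cyp2d22, a Cyp2d enzyme found in many mouse tissues, fell at day 1 in WT (-2.65 ± 0.55) and R219S (-1.57 ± 0.49). EV had 0.422, 0.356 and 0.175 CPM, WT 0.0996, 0.0258 and 0.0251, FE255del 0.113, 0.145 and 0.232, and R219S 0.0847, 0.113 and 0.122 CPM. At day 11 EV had 0.438, 0.292 and 0.588 CPM, WT 0.0573, 0.119 and 0.187, FE255del 1.29, 0.579 and 1.44, and R219S 0.308, 0.216 and 0.193 CPM. At day 11 it was higher than EV in FE255del (1.33 ± 0.39) and lower in WT (-1.89 ± 0.47). Its levels stayed at or below 1.44 CPM in every library. The 9 remaining xenobiotic genes (Cyp2b23, Cyp2c23, Cyp2c55, Cyp2d10, Cyp2d12, Cyp2d34, Cyp2t4, Cyp3a16 and, described above, Cyp2c70) had group means of at most 0.380 CPM. Of these, Cyp3a16 fell to 0 counts in R219S at day 1, at least 14.4-fold lower than EV (adjusted p = 8.1e-06). Cyp2c23 rose from 2 counts in EV to 50 in FE255del at day 1, a ratio of 23.7 with a 95% interval of 6.23 to 201.2. Cyp2d12, too low to test, had 35 counts in FE255del at day 11 and 3 in EV, a ratio of 11.1 with a 95% interval of 3.50 to 56.5.

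**Figure D3:**
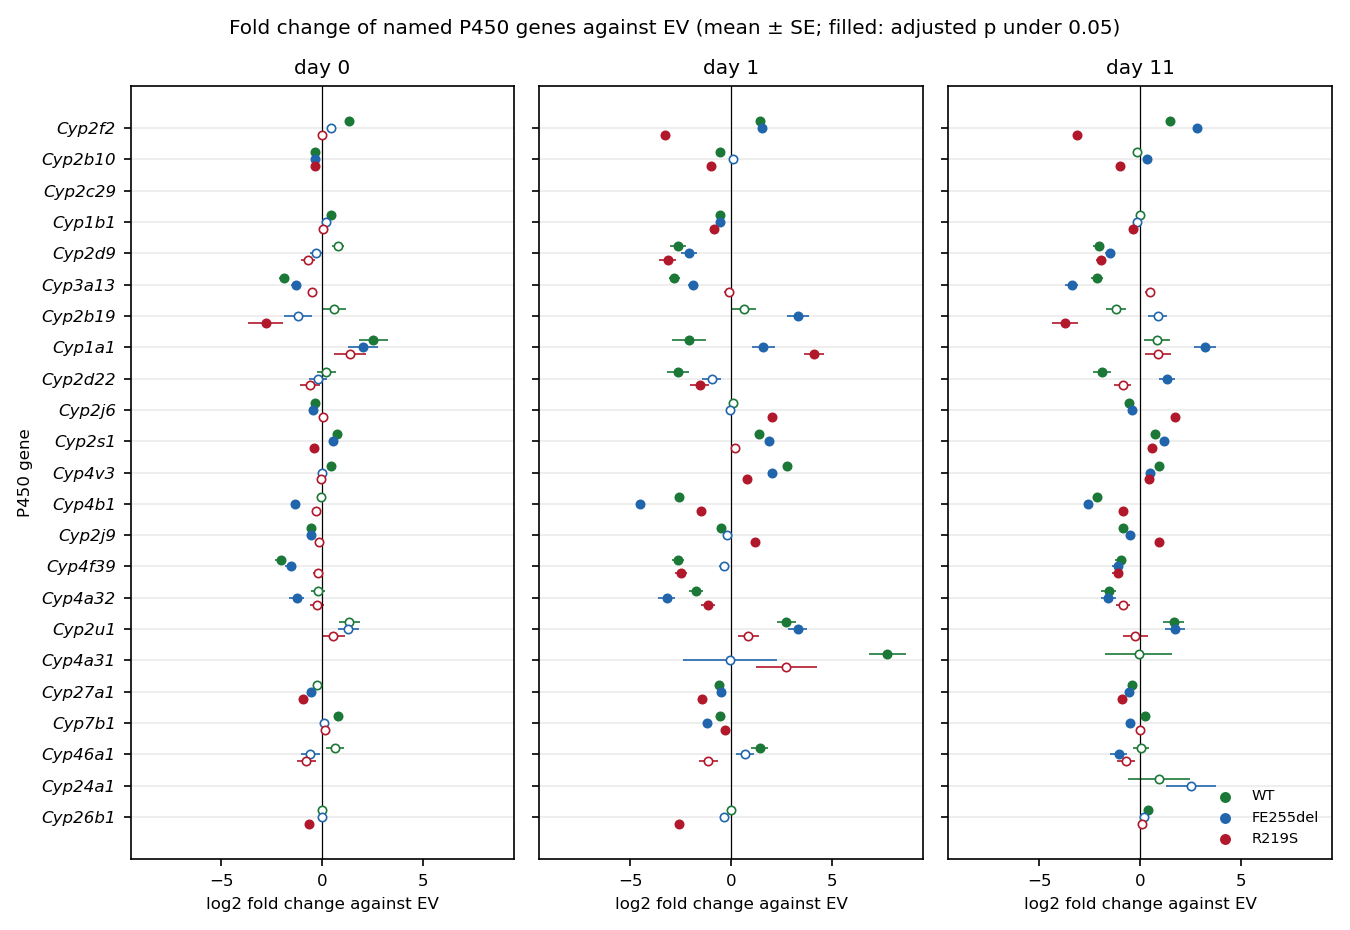
Log2 fold change against EV of the named P450 genes (rows) at days 0, 1 and 11 for WT, FE255del and R219S, with bars of ± SE. Filled points have an adjusted p under 0.05, and genes at 0 counts in a compared group, such as Cyp2c29, have no point. Cyp2f2 lies right of 0 in WT and FE255del and left in R219S at day 1, and filled points of Cyp2j6 right of 0 are those of R219S at days 1 and 11.

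Among the fatty acid and eicosanoid genes, 7 of 17 tested rose and 5 fell with WT at day 1, 4 rose and 3 fell with FE255del, and 5 rose and 4 fell with R219S. Of all genes tested, 29.6% rose and 30.9% fell with WT, 25.5% and 27.7% with FE255del, and 23.2% and 25.3% with R219S. The Cyp2j genes, epoxygenases that turn arachidonic acid into vasoactive lipids, were higher with R219S. Cyp2j6 (ENSMUSG00000052914.4), the broadly expressed member, had 86.9, 97.8 and 94.7 CPM in R219S at day 1 and 120.05, 124.6 and 120.2 CPM at day 11. EV had 23.4, 22.4 and 24.4 CPM at day 1 and 41.3, 34.0 and 34.1 CPM at day 11, and WT and FE255del stayed between 20.9 and 29.3 CPM on both days. The R219S libraries were thus all above every other library of either day. The log2 fold change against EV was 1.99 ± 0.08 at day 1 (adjusted p = 2.3e-21) and 1.74 ± 0.07 at day 11 (adjusted p = 2.6e-19). At day 0 R219S did not pass the test against EV (0.03 ± 0.08, adjusted p = 0.86), and the change since day 0 was 1.97 ± 0.11 at day 1 and 1.71 ± 0.11 at day 11. At day 11 WT and FE255del were below EV (-0.57 ± 0.07 and -0.41 ± 0.07). Both were below EV at day 0 too (-0.34 ± 0.08 and -0.49 ± 0.08, adjusted p = 0.00087 and 1.9e-05), and their change since day 0 did not pass at day 11 (-0.23 ± 0.11 and 0.07 ± 0.11, adjusted p = 0.14 and 0.74). At day 1 that change passed upward in both (0.45 ± 0.11 and 0.42 ± 0.11), with levels that did not pass against EV (0.10 ± 0.08 and -0.07 ± 0.08).

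Cyp2j9, described mainly in brain, had 5.57, 6.54 and 5.82 CPM in R219S at day 1, 2.62, 3.01 and 2.44 in EV, 1.71, 1.99 and 2.05 in WT, and 2.39, 1.86 and 2.78 CPM in FE255del. R219S lay above all other libraries of that day and WT below all EV libraries. It rose by 1.15 ± 0.12 in R219S (adjusted p = 1.0e-09) and fell in WT (-0.49 ± 0.13, adjusted p = 0.0015). At day 0 WT and FE255del were both below EV (-0.57 ± 0.13 in each), and their change since day 0 did not pass at day 1 (0.08 ± 0.19 and 0.36 ± 0.18) or day 11. Cyp2j5, the main Cyp2j of kidney, had 0.423, 0.324 and 0.476 CPM in R219S at day 1, 0.0268, 0.0577 and 0.0138 CPM at day 11 and 0 counts in every library of the other constructs. It was at least 27.9-fold higher than EV at day 1 (adjusted p = 5.2e-05). The other 5 Cyp2j genes of the array had at most 17 counts in any group.

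Cyp4v3, a fatty acid hydroxylase whose human counterpart is mutated in a retinal dystrophy, rose with all 3 constructs. At day 1 EV had 5.61, 6.27 and 4.98 CPM, WT 38.1, 36.5 and 38.7, FE255del 25.1, 22.2 and 20.9, and R219S 9.33, 9.71 and 9.44 CPM. The 4 groups did not overlap, and the order was WT, FE255del, R219S, EV. The rises were 2.75 ± 0.09, 2.02 ± 0.09 and 0.76 ± 0.09 (adjusted p = 4.2e-23, 2.4e-19 and 2.1e-08), and FE255del and R219S were below WT by 0.73 and 1.99 on the log2 scale (-0.73 ± 0.09 and -1.99 ± 0.09). At day 11 the excess over EV was 0.91 ± 0.09, 0.47 ± 0.09 and 0.44 ± 0.09. WT was above EV at day 0 already (0.43 ± 0.10, adjusted p = 0.00097), with 5.85, 6.47 and 6.84 CPM beside 4.99, 4.74 and 4.51 CPM. The change of WT since day 0 was 2.32 ± 0.13 at day 1 and 0.48 ± 0.13 at day 11 (adjusted p = 0.0068). Cyp2s1, an enzyme of lining epithelia that can be induced by dioxin, rose at day 1 with WT (80.8, 76.6 and 71.1 CPM) and FE255del (94.3, 108.2 and 110.8 CPM) from 30.2, 30.2 and 26.4 CPM in EV. These rises were 1.396 ± 0.12 and 1.85 ± 0.12 (adjusted p = 4.2e-11 and 1.7e-13). R219S, at 28.3, 33.2 and 36.7 CPM, did not pass the test (0.18 ± 0.12, adjusted p = 0.24). WT and FE255del were above EV at day 0 too (0.74 ± 0.12 and 0.54 ± 0.12), and the change since day 0 passed at day 1 in WT (0.66 ± 0.17), FE255del (1.31 ± 0.17) and R219S (0.59 ± 0.17). R219S had been below EV at day 0 (-0.42, adjusted p = 0.015), a call lost without EV day 0 replicate 2 or R219S day 0 replicate 3 (adjusted p of up to 0.13). Cyp2u1, a hydroxylase of long fatty acids, rose from 0.116, 0.0594 and 0.175 CPM in EV to 0.647, 0.594 and 1.08 CPM in WT (2.72 ± 0.46) and 1.48, 1.16 and 0.797 CPM in FE255del (3.29 ± 0.46). R219S, at 0.212, 0.169 and 0.245 CPM, did not pass (0.83 ± 0.52, adjusted p = 0.19). Cyp2s1 and Cyp2u1 each overlap an antisense gene, so their reads cannot be fully told from those of Gm26707 and 4930534D22Rik.

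Cyp4b1 (ENSMUSG00000028713.14), a fatty acid hydroxylase of lung and bladder that also activates toxins, was lower than EV with every FOXA1 construct at days 1 and 11. At day 1 EV had 6.67, 6.52 and 6.47 CPM, WT 1.22, 1.19 and 0.805, FE255del 0.141, 0.316 and 0.406, and R219S 2.17, 2.58 and 2.10 CPM. The 4 groups did not overlap, with FE255del lowest. The falls were -2.61 ± 0.17 in WT, -4.51 ± 0.21 in FE255del and -1.52 ± 0.16 in R219S (adjusted p = 4.0e-15, 1.0e-18 and 5.6e-10). In EV it rose to 30.1, 30.1 and 30.0 CPM by day 11 (2.27 ± 0.15), where R219S had 14.3, 19.98 and 16.0 CPM, WT 6.45, 7.81 and 6.53, and FE255del 5.12, 5.56 and 4.53 CPM. FE255del was below EV at day 0 as well (-1.37 ± 0.16), and its change since day 0 was -3.14 ± 0.28 at day 1. The change of R219S since day 0 passed downward at day 11 for 0 of the 17 fatty acid and eicosanoid genes tested, Cyp4b1 included. Cyp4f39, which hydroxylates very long fatty acids for the skin barrier, fell at day 1 in WT (-2.63 ± 0.29) and R219S (-2.49 ± 0.29), whereas FE255del did not pass (-0.34 ± 0.25, adjusted p = 0.27). EV had 2.17, 1.78 and 2.07 CPM, WT 0.299, 0.362 and 0.314, FE255del 1.61, 1.66 and 1.48, and R219S 0.452, 0.296 and 0.327 CPM. WT and FE255del were already low at day 0 (-2.06 ± 0.28 and -1.57 ± 0.27), and the change since day 0 passed only in R219S (-2.28 ± 0.39) and, upward, in FE255del (1.23 ± 0.37) at day 1.

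The Cyp4a genes are fatty acid hydroxylases switched on in liver by the receptor PPAR-alpha, and here 2 of them rose in WT at day 1. Cyp4a31 had 1.23, 0.775 and 1.11 CPM in WT at day 1 and at most 0.0544 CPM in every other library. The ratio to EV was 213-fold, with a 95% interval of 37.9 to 8448, since EV had 1 count. Cyp4a10 had 0.597, 0.452 and 0.553 CPM in WT and 0.247, 0.282 and 0.161 CPM in EV (1.22 ± 0.52, adjusted p = 0.042), and it fell in FE255del (-3.64 ± 0.81) and R219S (-2.31 ± 0.68). FE255del was below EV at day 0 as well (-2.07 ± 0.70, adjusted p = 0.031), and the change since day 0 passed at day 1 only in WT (2.21 ± 0.81, adjusted p = 0.025). Cyp4a32 fell with WT (-1.75 ± 0.37), FE255del (-3.19 ± 0.42) and R219S (-1.15 ± 0.35, adjusted p = 0.0070), the last of which was lost without EV day 1 replicate 1 (adjusted p = 0.050). EV had 1.77, 1.41 and 1.01 CPM, WT 0.498, 0.245 and 0.503, FE255del 0.0282, 0.184 and 0.246, and R219S 0.522, 0.663 and 0.708 CPM. FE255del was lower at day 0 too (-1.27 ± 0.37, adjusted p = 0.013, lost without EV day 0 replicate 2). The change since day 0 passed at day 1 in FE255del (-1.92 ± 0.57) and WT (-1.52 ± 0.51) and did not pass in R219S (-0.90 ± 0.50, adjusted p = 0.16). Of their 50-base words, 29.8% of Cyp4a10, 20.6% of Cyp4a31 and 43.8% of Cyp4a32 occur in other genes, mostly each other, so the split of reads among them is uncertain. Of the 3 Cyp4f genes with the highest levels, Cyp4f13, Cyp4f16 and Cyp4f17, group means stayed between 6.30 and 17.5 CPM. Of their calls against EV, the largest was -0.40 for Cyp4f13 in R219S at day 0. The other Cyp4f genes, Cyp4f14, Cyp4f18, Cyp4f37 and Cyp4f40, stayed at or below 0.385 CPM in every group mean.

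Of the 4 sterol and bile acid genes, 3 fell in each construct at day 1, and in WT the fourth rose. At day 11, 4 fell in FE255del, 2 fell in R219S, and in WT 2 fell and 1 rose. The shares of all genes that fell at day 1 were 30.9% in WT, 27.7% in FE255del and 25.3% in R219S. At day 11 they were 19.7%, 19.6% and 14.4%. In WT 29.6% of all genes rose at day 1 and 21.0% at day 11. The change since day 0 minus that of EV passed only downward in these 4 genes. At day 1 it passed for 2 in WT, 2 in FE255del and 3 in R219S, against 23.8%, 22.9% and 23.3% of all genes downward. At day 11 it passed for 1, 1 and 0, against 10.5%, 11.1% and 14.7%. Cyp39a1, an oxysterol hydroxylase, had 49.0, 50.7 and 49.5 CPM in EV at day 1, 33.1, 37.0 and 35.2 in WT, 33.1, 31.4 and 30.1 in FE255del, and 28.5, 28.8 and 30.4 CPM in R219S. All 9 construct libraries were below EV, by -0.50 ± 0.06, -0.66 ± 0.06 and -0.77 ± 0.06 (adjusted p = 7.5e-09, 2.8e-11 and 8.7e-13). For Cyp39a1 R219S was already below EV at day 0, with 40.6, 42.0 and 36.6 CPM beside 46.4, 42.9 and 44.7 CPM. Cyp27a1, the mitochondrial sterol hydroxylase of bile acid synthesis, had 22.4, 20.4 and 22.2 CPM in EV and 7.30, 8.19 and 8.04 CPM in R219S (-1.47 ± 0.14, adjusted p = 2.0e-10). WT with 16.4, 11.3 and 14.7 CPM and FE255del with 14.5, 14.5 and 16.0 CPM lay between them (-0.61 ± 0.13 and -0.53 ± 0.13). R219S and FE255del were below EV at day 0 too (-0.95 ± 0.14 and -0.55 ± 0.13), and the change since day 0 passed at day 1 only in R219S (-0.52 ± 0.19, adjusted p = 0.032). Cyp7b1, which clears oxysterols and in prostate an androgen metabolite, fell at day 1 most in FE255del, to 5.43, 5.76 and 5.93 CPM from 12.04, 14.6 and 12.8 CPM in EV (-1.20 ± 0.09, adjusted p = 3.5e-14). WT had 8.48, 9.15 and 9.27 CPM (-0.55 ± 0.08) and R219S 10.4, 10.7 and 10.3 CPM (-0.33 ± 0.08). Since WT started from 19.6, 18.3 and 21.0 CPM at day 0, above the 11.3, 11.7 and 11.8 CPM of EV, its change since day 0 was -1.31 ± 0.12, beside -1.28 ± 0.12 in FE255del. At day 11 WT had 17.4, 16.5 and 16.8 CPM and EV 14.3, 14.97 and 14.4 CPM. The difference (0.22 ± 0.08, adjusted p = 0.032) was lost without replicate 1 or 3 of either group (adjusted p of up to 0.091), and the change of WT since day 0 was -0.55 ± 0.11. Cyp46a1, the cholesterol hydroxylase known from brain, rose in WT at day 1 (1.399 ± 0.42, adjusted p = 0.0048), with 2.79, 0.840 and 3.21 CPM beside 1.09, 0.832 and 0.671 CPM in EV. The WT and EV libraries of Cyp46a1 overlap, and its change since day 0 in WT did not pass upward at day 1. At day 11 the 4 genes all fell in FE255del, of which the call of Cyp46a1 (-1.07 ± 0.44, adjusted p = 0.049) was lost in 7 of 11 alternatives. These include leaving out EV day 11 replicate 2 (adjusted p = 0.325) or 3, or FE255del day 11 replicate 2 or 3.

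Of the genes that clear or make hormone-like vitamins, Cyp26b1, which degrades retinoic acid, was lowest in R219S at day 1. EV had 5.09, 4.29 and 4.22 CPM, WT 4.80, 4.47 and 4.36, FE255del 3.40, 3.65 and 3.64, and R219S 0.706, 0.761 and 0.776 CPM. R219S was below all other libraries of the series, by -2.60 ± 0.18 against EV (adjusted p = 9.6e-15) and -2.60 ± 0.17 against WT (adjusted p = 5.0e-15). By day 11 R219S had 4.16, 3.17 and 2.75 CPM and EV 2.88, 3.53 and 3.15 CPM, which did not pass the test (0.08 ± 0.15, adjusted p = 0.76). R219S was lower than EV at day 0 as well (-0.64 ± 0.15), and its change since day 0 was -1.96 ± 0.23 at day 1. Cyp24a1, which inactivates vitamin D, had 0 counts in all EV and R219S libraries of day 1, 0.124, 0.310 and 0.251 CPM in WT and 0.113, 0.158 and 0.203 CPM in FE255del. It was at least 15.5-fold higher in WT than in EV (adjusted p = 7.6e-05) and at least 10.7-fold higher in FE255del (adjusted p = 0.00040). Cyp27b1, which makes active vitamin D, passed no comparison with EV and had group means of 0.463 to 0.903 CPM. Cyp2r1, which starts vitamin D activation in liver, is listed at 0 in every library.

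The steroidogenic genes were near 0. Cyp21a1, the adrenal steroid hydroxylase, was at most 0.505 CPM in any library and shares 23.8% of its 50-base words with other genes. It fell in WT at day 11 to 2 counts, a ratio of 15.7 to EV (adjusted p = 0.0054). Cyp11b1 had 23 counts in WT at day 1 and 0 in the other constructs of that day. Cyp11a1, Cyp17a1 and Cyp19a1, which start steroid synthesis or make androgens and estrogens, had at most 12 counts in any group. Cyp20a1, a conserved P450 of unknown substrate, varied little, between group means of 17.8 and 31.8 CPM. It passed in 8 of 9 comparisons with EV, the largest difference being 0.35 ± 0.05 in R219S at day 1 (adjusted p = 1.4e-06).

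**Figure D4:**
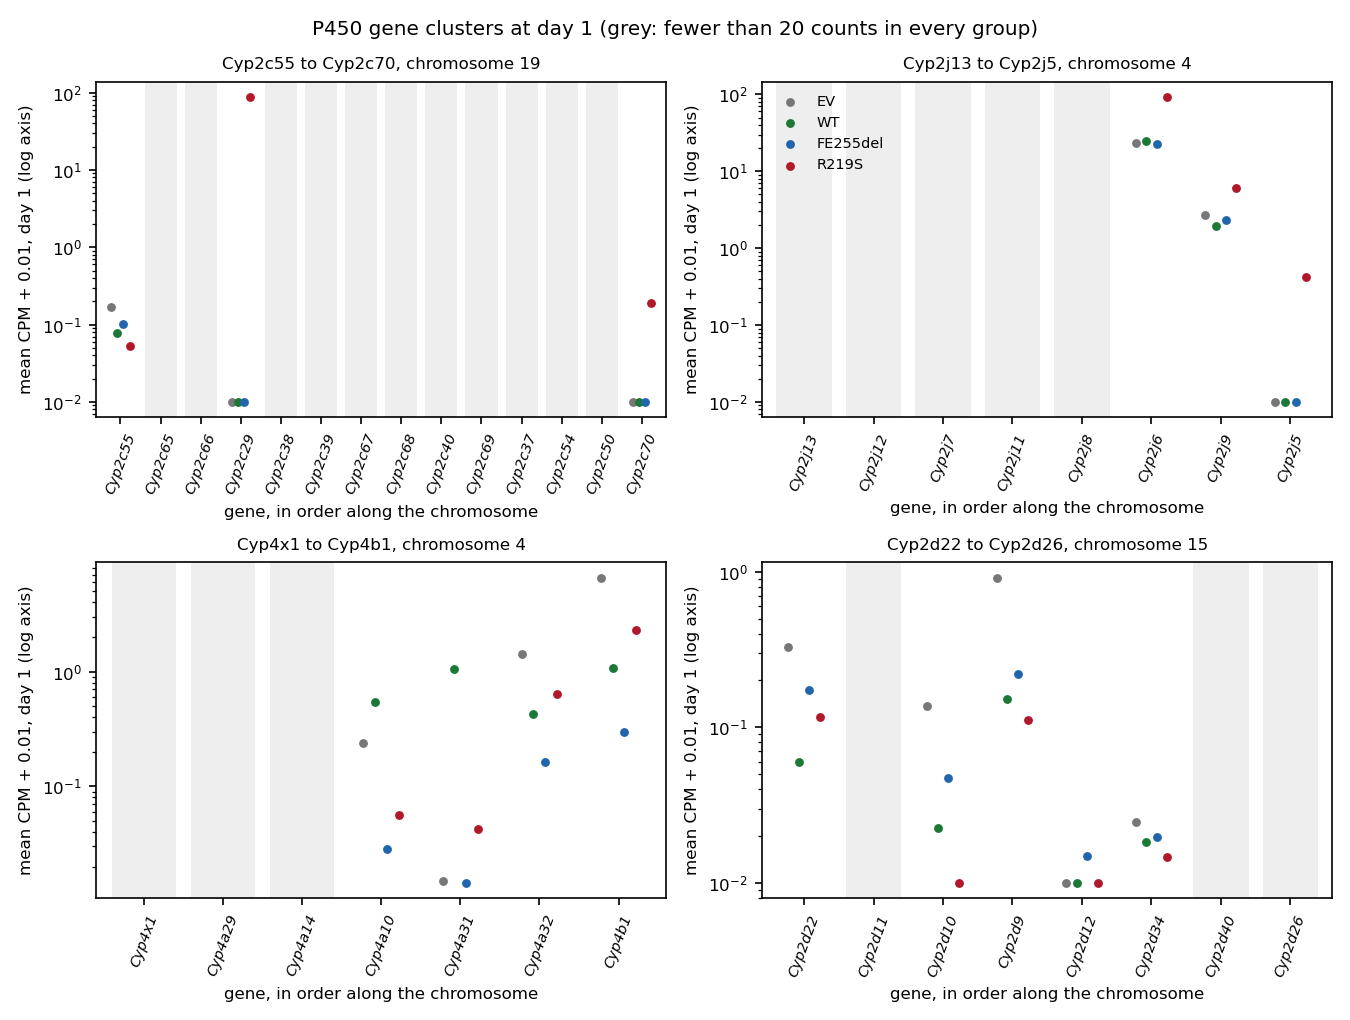
Mean CPM at day 1 (log axis, 0.01 added) of the genes of 4 P450 arrays in their order along the chromosome, by construct. Grey columns are genes under 20 counts in every group. In the Cyp2j array the 3 described neighbours are all highest in R219S, and in the Cyp2c array Cyp2c29 stands alone at 88.2 CPM.

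Position in the arrays was not used to choose the genes, but a gene was described only if its counts in these same groups sufficed. Cyp2j5 had 88 of its 95 counts in R219S at day 1, and Cyp4a31 had 247 of its 260 in WT at day 1. Neighbours that rose together were thus partly picked by the values described. Other arrays, such as that from Cyp2s1 to Cyp2t4 on chromosome 7, are not given here. In the Cyp2c array of chromosome 19 (14 members, chr19:39007019-40187333, mm10), 3 of 14 genes were described. Cyp2c29 reached a mean of 88.2 CPM in R219S at day 1, while its nearest described neighbours were at 0.0421 CPM for Cyp2c55 and 0.182 CPM for Cyp2c70. The near copies Cyp2c38 and Cyp2c39, whose stretches are printed above, had 2 and 10 counts in that group beside 19005 for Cyp2c29. In the Cyp2j array of chromosome 4 (8 members), the 3 adjacent genes Cyp2j6, Cyp2j9 and Cyp2j5 rose in R219S at day 1 and the other 5 were under 20 counts. In the array from Cyp4x1 to Cyp4b1 on the same chromosome, the adjacent genes Cyp4a10 and Cyp4a31 rose in WT at day 1. Cyp4a32 and Cyp4b1, the next genes along, fell. The split of reads among the Cyp4a genes is uncertain, as stated above. In the Cyp2d array of chromosome 15, Cyp2d22 and Cyp2d9 fell in WT at day 1, Cyp2d10 fell to 3 counts, and Cyp2d12 and Cyp2d34 were too low to test.

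The genes that serve or switch P450 enzymes moved in both directions. Of 21 tested genes for electron supply and heme, 7 rose and 9 fell at day 1 in WT, 6 and 5 in FE255del, and 8 and 5 in R219S. Beside this list and the next, 60.5% of all genes tested passed at day 1 in WT, 53.2% in FE255del and 48.5% in R219S. Por, the reductase that serves most P450 enzymes, fell in FE255del (-0.11 ± 0.04) and R219S (-0.28 ± 0.04) and did not pass in WT (-0.06 ± 0.04). Pgrmc1, a heme-binding partner of P450 enzymes, rose by 1.498 ± 0.06 in R219S and 0.79 in WT, and Alas1, which starts heme synthesis, rose by 1.18 in WT and 0.26 in R219S. Of 20 receptors and partners that switch P450 genes on, 6 rose and 8 fell in WT, 4 and 10 in FE255del, and 4 and 11 in R219S. Ahr fell in all 3 (-2.05, -2.03 and -1.71 ± 0.09), as did Vdr (-1.999, -1.85 and -1.55 ± 0.07), while Ppara rose (3.73, 3.03 and 1.09). Tiparp, another target of AHR, rose by 1.2495 ± 0.05 in R219S, 0.19 in WT and was lower in FE255del (-0.20). Nr1i3, which encodes CAR, was at 0.15 CPM in EV and 0.20 CPM in R219S at day 1 and passed in none of the 3.

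Of 35 tested genes of phase II conjugation, which act on P450 products, 12 rose and 12 fell at day 1 in WT, 6 and 16 in FE255del, and 13 and 10 in R219S. For this list and those below, the shares of all genes that passed at day 1 were 60.5% in WT, 53.2% in FE255del and 48.5% in R219S. In R219S Ugt2b34, a glucuronosyltransferase, rose by 4.71 ± 0.18 and Gsta3, a glutathione transferase, fell by 2.94 (-2.94 ± 0.11). Of 19 genes of retinoid handling, 7 rose and 9 fell in WT, 6 and 10 in FE255del, and 4 and 7 in R219S. With R219S the retinoid storage enzyme Lrat rose by 3.88 ± 0.12, whereas the retinoic acid synthase Aldh1a3 (-2.68 ± 0.14) and the receptor Rarb (-1.04), fell. Of 18 eicosanoid genes, 8 rose and 8 fell in WT, 7 and 7 in FE255del, and 5 and 7 in R219S, where the cyclooxygenase Ptgs1 fell (-1.86 ± 0.07). Of 21 steroid and sterol enzymes that are not P450s, 9 rose and 7 fell in WT, 8 and 7 in FE255del, and 8 and 5 in R219S. Srd5a1, which makes dihydrotestosterone, fell in all 3 (-1.18, -0.98 and -0.72 ± 0.08), and Soat1, which esterifies cholesterol, rose (1.08, 1.68 and 0.95 ± 0.06).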

How the data were processed

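Polyadenylated RNA of 36 libraries was sequenced, 3 for each of 4 constructs at 3 times. The authors deposited 1 table of counts per gene for each library. Some deposited values are written with decimals, so the unit is that of expected counts, and they were rounded to whole numbers. STAR 2.4.2a, featureCounts 1.4.3 and mm10 are named in the submitters' processing notes, without roles, and the annotation release and strand setting are not given in the sources used here. Of counts from 1 to 20, 69.7% were even, as when both mates of a pair are counted, so counts are not independent molecules. The intervals and floors treat each count as independent and cover counting error only. Where both mates were counted, the intervals are too narrow and the bounds on fold changes too high.

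Of 45232 gene IDs, 44585 matched a symbol in GENCODE M21 (GRCm38, the assembly of mm10). Genes passing edgeR's filterByExpr were fitted in edgeR 4.0.16 with TMM scaling (factors 0.938 to 1.08) and the robust quasi-likelihood F test, two-sided, in 1 model of 12 group means. The 23 comparisons were each adjusted by Benjamini-Hochberg over 18176 genes, with a threshold of 0.05. The SE of a log2 fold change is its size over the root of F. A group at 0 was set to a floor of 3 counts over its 3 libraries, and groups of 1 to 3 counts got a ratio with a 95% exact interval. The script was tested on simulated data. Values per library are given for the 20 members with the widest range of group means (log2, 0.5 CPM added, highest mean of at least 1 CPM), for Cyp1a1, Cyp1b1, Cyp2f2, Cyp2s1, Cyp4b1, Cyp24a1, Cyp26a1, Cyp26b1, Cyp27a1 and Cyp7b1, and for Cyp2c29, except that Cyp26a1, under the count limit, is given by its highest group total. Other P450 genes, Nr1i3, Ppara and the marker genes named were chosen after their values were seen. From each other gene list up to 4 genes with the smallest p in a comparison are named, and Foxa1 checks the constructs. Promoters are RefSeq's for GRCm38.p6.

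Alternatives were other scalings (DESeq2's size factors, total counts), no filter, DESeq2 1.42.0, a replicate block and leaving out each library. The members and lists were chosen with earlier results of these data known.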

Additional observations from a re-analysis of the deposited data

Results flagged for a closer look

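For 9 P450 genes a FOXA1 variant and WT lay on opposite sides of EV on the same day, each past the threshold. The difference between variant and WT also passed edgeR's quasi-likelihood test. That adds little, since genes picked for lying on opposite sides of EV were all but bound to pass it. All log2 differences here are variant minus WT. For Cyp2f2 the difference of R219S was -4.70 at day 1 and -4.59 at day 11. For Cyp2j9 it was 1.64 at day 1 and 1.83 at day 11, and for Cyp2j6 it was 2.31 at day 11. In Cyp2f2, Cyp2j9 and Cyp2j6, WT already lay on that side of EV at day 0. The change of WT since day 0 did not pass for them on the days named. Cyp1a1 differed by 6.19 in R219S and 3.68 in FE255del at day 1, where WT had 2 counts in each library. Against EV, its WT call was lost in 5 of 11 alternatives and its FE255del call in 2. Cyp4a10 differed by -4.85 in FE255del and -3.52 in R219S at day 1, where its change since day 0 passed only in WT. Cyp2d22 differed by 3.22 and Cyp7b1 by -0.70 in FE255del at day 11. For Cyp7b1 the difference of WT from EV (0.22, adjusted p = 0.032) was lost in 4 of 11 alternatives, with an adjusted p of up to 0.091. WT was above EV at day 0 too, and its change since day 0 was negative. Cyp20a1 differed by 0.49 in R219S at day 1, and Cyp2s1 by -1.15 in R219S at day 0, before induction. Against EV, the R219S call of Cyp2s1 at day 0 was lost in 2 of 11 alternatives.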

How the results depend on the processing

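The number of P450 genes called in EV at day 1 against day 0 was 1, and it was 2 with DESeq2's size factors, without a filter on low counts, with DESeq2 and with a replicate block. Leaving out 1 library in turn gave 0 to 1 for that comparison. It gave 8 to 12 for FE255del against EV at day 0, lowest without EV day 0 replicate 2, in place of 13. For R219S against EV at day 0 it gave 3 to 8, lowest without EV day 0 replicate 2, in place of 8. For FE255del against WT at day 0 it gave 6 to 11, lowest without FE255del day 0 replicate 2 or 3, in place of 10. The counts of the other 19 comparisons stayed within 1.5 times under every alternative run. The causes were not tested. Same-numbered libraries did not pair, with correlations of deviations from -0.548 to 0.516 and no comparison in which every pair passed 0.1, so the block is given here only.

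Of 3268 alternative values for 264 calls of named members with counts in each group, 3110 stayed called in the same direction, 158 lost the call and 0 reversed, 138 of the losses on leaving out a library. Scaling to total counts moved the median of all genes by 0.12 on the log2 scale in WT against EV at day 1. Cyp4a10 reached at most 127 counts over the 3 libraries of a group, and small differences in such genes were not detectable at this depth.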
